A study of Mus musculus with 24 samples.

Results

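The proliferins are closely related mouse genes of the prolactin family, taken here under 4 names, Prl2c2, Prl2c3, Prl2c4 and Prl2c5. They were chosen by name after Prl2c2 had stood out in the same RNA-seq data. Its measured values fell from day 4 to day 8 in BAT controls and were high with EGCG on day 8. Of the 4 names, 3 had a gene among the 37310 genes of the expression tables, and Prl2c4 had none. The RefSeq gene table lists Prl2c4 as a synonym of Prl2c3, so its reads, if it is a gene of its own, may be among those of Prl2c3. RNA was measured in 24 libraries from primary stromal vascular fraction (SVF) cells, the mixed non-adipocyte cells of adipose tissue, taken from inguinal white (WAT) and interscapular brown (BAT) fat of 6-week-old C57BL/6 mice. The cells of both depots were induced to form adipocytes with insulin, dexamethasone and 3-isobutyl-methylxanthine for 4 days, and then kept in a medium with insulin and T3 until day 8. Either EGCG (epigallocatechin gallate, a green tea catechin) or DMSO, the control, was added to the medium, and RNA was taken from cells of both days. This gave 8 groups of 3 libraries: WAT and BAT, day 4 and day 8, control and EGCG. The EGCG dose and the number of mice behind each replicate are not given in the sources used here, so p-values measure the spread between libraries, which may be technical.

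Proliferins are secreted hormones best known from the trophoblast giant cells of the mouse placenta, where they act on blood vessel growth. They bind the cation-independent mannose 6-phosphate receptor, Igf2r. Outside the placenta they were first known as transcripts that serum and growth factors induce in cultured fibroblasts, and the proliferin promoter is a textbook case of a regulatory element used jointly by AP-1 (Fos and Jun family dimers) and the glucocorticoid receptor. Dexamethasone, a glucocorticoid, was part of the induction medium only.

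The 3 measured genes lie on chromosome 13 of the mm9 build, and each is a protein-coding gene of 5 exons. Prl2c3 (ENSMUSG00000056457.5) spans chr13:12883089-12892345 on the minus strand, Prl2c2 (ENSMUSG00000079092.2) spans chr13:13088393-13097659 on the minus strand, and Prl2c5 (ENSMUSG00000055360.7) spans chr13:13274982-13284190 on the plus strand. The transcripts of Prl2c2 and Prl2c3 are both 850 bases long and are identical at 99.5% of positions. They differ at 4 bases, 1 in the 5′ UTR and 3 in the coding sequence. Prl2c5 shares 96.1% of the Prl2c2 coding sequence, with 20 substitutions and 6 gap columns. The 3 coding differences between Prl2c2 and Prl2c3 are shown because only reads that cross a difference can be told apart. They are T14C in codon 5 (exon 1), C200A in codon 67 (exon 2) and T319G in codon 107 (exon 4), with the Prl2c2 base first and positions counted from the A of the start codon. In the sequences, read 5′ to 3′ from the mm9 annotation, capitals mark each base at which the 3 genes are not all alike.

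Around coding base 14 (Prl2c2 coding bases 1 to 34), Prl2c5 carries the Prl2c2 base.
Prl2c2: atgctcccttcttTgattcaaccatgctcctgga
Prl2c3: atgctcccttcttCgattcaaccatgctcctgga
Prl2c5: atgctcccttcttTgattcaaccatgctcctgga

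Around coding base 200 (bases 180 to 220), Prl2c5 again carries the Prl2c2 base but has a difference of its own nearby.
Prl2c2: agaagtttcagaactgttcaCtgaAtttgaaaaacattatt
Prl2c3: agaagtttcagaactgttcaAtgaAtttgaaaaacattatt
Prl2c5: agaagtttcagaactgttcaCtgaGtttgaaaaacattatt

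Around coding base 319 (bases 299 to 339), Prl2c5 carries the Prl2c3 base and differs from Prl2c2 at 5 bases.
Prl2c2: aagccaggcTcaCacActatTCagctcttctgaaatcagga
Prl2c3: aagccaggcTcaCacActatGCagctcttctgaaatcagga
Prl2c5: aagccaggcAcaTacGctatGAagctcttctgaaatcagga

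No base differs between Prl2c2 and Prl2c3 beyond transcript position 385. A stretch of 100 bases was searched for in the other transcripts and along chromosome 13 to see how much of each gene can be told apart. For Prl2c2, 259 of 751 such stretches (34.5%) occurred nowhere else, and 471 occurred in Prl2c3. For both Prl2c2 and Prl2c3, 56 stretches also occurred on chromosome 13 outside the measured genes. The unique share was 37.3% for Prl2c3 and 90.9% for Prl2c5. With 50-base stretches the shares were 11.5%, 20.8% and 61.0%, and with 150-base stretches they were 49.8%, 49.8% and 100%. The read length and the handling of reads with several matches are not given in the sources used here. So each level of Prl2c2 and Prl2c3 is uncertain as to which copy, or which other place with the same bases, it came from. The summed reads of the family are given beside these levels where that matters.

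**Figure D1:**
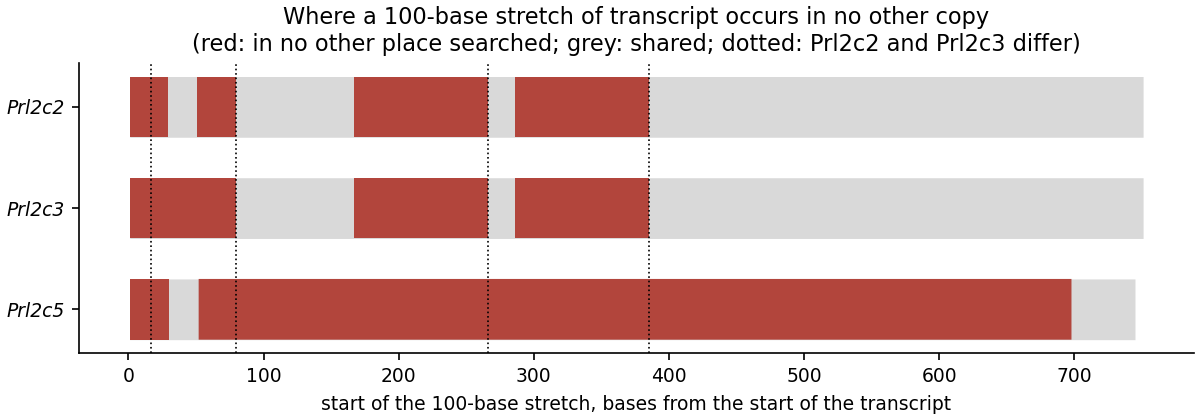
Position along the transcript (bases from its start, x axis) of each 100-base stretch of Prl2c2, Prl2c3 and Prl2c5 (rows), in red where the stretch occurs in no other place searched and in grey where it is shared. Dotted lines mark the 4 bases that differ between Prl2c2 and Prl2c3, and both genes are grey to the right of the last one, at base 385.

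Levels are FPKM, reads scaled by gene length and library size, as deposited. Since the handling of shared reads is not known, the levels and ranks of Prl2c2 and Prl2c3 compare with other genes only roughly. Replicates 1 and 2 came from one table (39452696 to 52893848 reads on genes per library) and replicate 3 from another (16392420 to 41675643 reads). In both, the FPKM of a library could be recomputed from its own read total and the gene lengths. Means ± SD and tests rest on replicates 1 and 2, and replicate 3, from the other table, is given as a further value. One library stood apart. In WAT day 8 EGCG replicate 3, 61.0% of reads fell on 5 genes that had at most 5 reads in any other library. These reads lower the FPKM of all other genes in it, and values without the 5 genes are given as rescaled.

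Prl2c2 was an abundant mRNA on day 4 in BAT cells and with EGCG, and was close to absent on day 8 in both depots without EGCG. In BAT cells on day 4 it reached 57.0, 61.8 and 64.2 FPKM with EGCG (replicates 1, 2 and 3), a rank between 998 and 1113 among the 37310 genes. The BAT day 4 controls had 46.1, 38.3 and 33.1 FPKM. On day 8 the BAT cells had 26.1, 32.5 and 31.1 FPKM with EGCG, whereas the BAT controls had 0.430, 0.149 and 0.0666 FPKM, from 17, 5 and 1 reads. All EGCG libraries lay above all controls of the same day in BAT.

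In WAT cells the day 4 controls had 1.44, 2.50 and 2.08 FPKM and the EGCG libraries 34.2, 24.2 and 36.8 FPKM. On day 8 the WAT controls had 0.142, 0.0293 and 0.355 FPKM, from 6, 1 and 5 reads, and the EGCG libraries had 15.2, 13.7 and 5.36 FPKM. The third of these was 13.8 FPKM when rescaled. The WAT groups with and without EGCG did not overlap on either day. The share of all genes that separate in this way was not counted, so statements on overlap here only describe the values. On day 8 the contrasts of EGCG with control in both depots also chose the family.

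Ordered by the mean of replicates 1 and 2, Prl2c2 was highest in BAT day 4 EGCG (59.4 ± 3.35 FPKM, SD, n = 2), followed by BAT day 4 control (42.2 ± 5.48), BAT day 8 EGCG (29.3 ± 4.52), WAT day 4 EGCG (29.2 ± 7.07), WAT day 8 EGCG (14.5 ± 1.03) and WAT day 4 control (1.97 ± 0.744). The day 8 controls came last, with 0.290 ± 0.199 FPKM in BAT and 0.0856 ± 0.0797 FPKM in WAT. The neighbours that did not differ beyond their spread were BAT day 8 EGCG with WAT day 4 EGCG, and both day 8 control groups. A level of 3 reads, the floor used here, corresponded to 0.0688 FPKM of Prl2c2 in the WAT day 4 control replicate 1, and such floors and intervals cover counting error only.

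**Figure D2:**
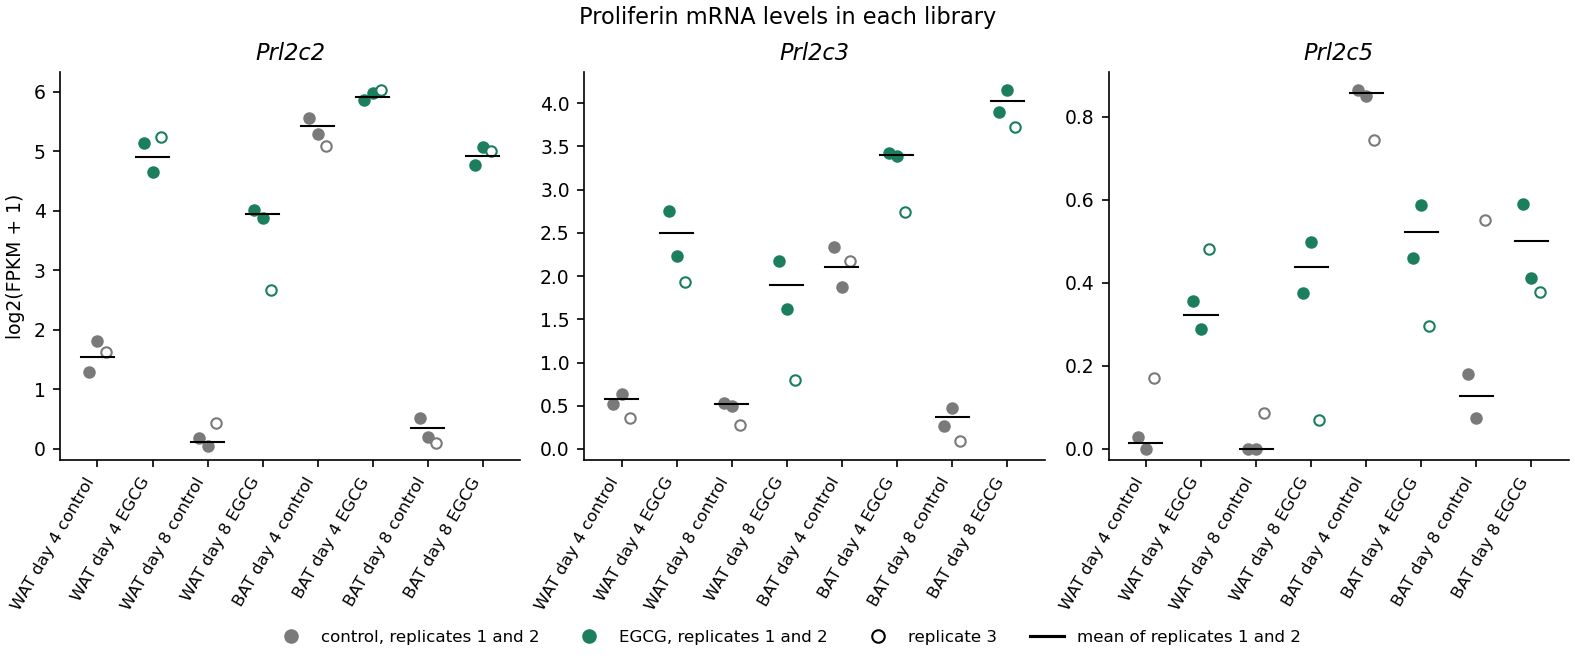
Level of Prl2c2, Prl2c3 and Prl2c5 (one panel each, y axis log2(FPKM + 1) with its own scale) in each of the 24 libraries, by group on the x axis. Filled points are replicates 1 and 2, open points replicate 3, grey is control, green is EGCG, and the line is the mean of replicates 1 and 2. In the Prl2c2 panel the EGCG points lie above the control points in all 4 pairs of groups, and in the Prl2c5 panel they lie below them in BAT on day 4.

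The effect of EGCG on day 4 was tested with limma on log2(FPKM + 1) over the 16 libraries of replicates 1 and 2. Differences are on that scale, which understates the change of low genes, and a gene is called at a Benjamini-Hochberg adjusted p under 0.05. In WAT cells Prl2c2 rose with EGCG on day 4 by 3.35 ± 0.193 (SE, adjusted p = 8.88e-08), a ratio of mean FPKM of 14.8. Prl2c3 rose in the same cells by 1.92 ± 0.208 (adjusted p = 1.35e-05), a ratio of 9.60. Both tested members were called higher, where 53.7% of the 14095 tested genes were called in either direction. Replicate 3 gave ratios of 17.7 and 9.79. In bulk RNA, more cells that carry a transcript and more transcript per cell cannot be told apart, and this holds for each difference reported.

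In BAT cells, in which Prl2c2 was already high, EGCG gave on day 4 a Prl2c2 difference of 0.49 ± 0.193 (adjusted p = 0.0552) that was not called, although the EGCG library was higher in 3 of 3 replicates. The fit of 23 libraries that included replicate 3 gave 0.64 (adjusted p = 0.00257). Prl2c3 rose by 1.30 ± 0.208 (adjusted p = 0.000284), from 3.35 ± 0.968 to 9.60 ± 0.146 FPKM. So 1 of the 2 tested members was called, where 48.5% of tested genes were.

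The EGCG effect on Prl2c2 was smaller in BAT than in WAT cells on day 4. The interaction term was −2.86 ± 0.273 (adjusted p = 2.44e-05), where 28.1% of tested genes were called. For Prl2c3 the same term was −0.62 ± 0.294 (adjusted p = 0.142) and was not called. It was called at −1.48 (adjusted p = 0.0252) with a pseudocount of 0.1 and at −0.74 (adjusted p = 0.0190) when 23 libraries were fitted. Comparisons that use the same group share its libraries and are not independent of each other. Of the 10 tested comparisons, 8 share at least 1 group with the contrasts that chose the family. Their Prl2c2 p-values are not independent of that choice. EGCG in WAT on day 4 and the depots with EGCG on day 4 share no library with those contrasts.

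On day 8 the EGCG contrasts are those that chose the family, so they are described without a test. On the log2(FPKM + 1) scale Prl2c2 was 3.83 higher with EGCG in WAT and 4.56 higher in BAT. Prl2c3 was 1.38 higher in WAT and 3.66 higher in BAT. In these contrasts 63.6% and 72.6% of tested genes were called, respectively.

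From day 4 to day 8 Prl2c2 fell in WAT cells with and without EGCG. In WAT controls it fell by 1.43 (SE 0.193, adjusted p = 5.02e-05), whereas Prl2c3 showed −0.06 ± 0.208 (adjusted p = 0.819). The WAT day 8 control values were part of what chose Prl2c2, so its p-value here is not independent of that choice. The day 4 and day 8 values of Prl2c2 did not overlap in WAT controls, and those of Prl2c3 did. Of the tested genes 61.0% were called. In WAT cells with EGCG, Prl2c2 fell by 0.95 (SE 0.193, adjusted p = 0.00120) and kept 0.495 of its day 4 mean FPKM. Prl2c3 fell by 0.60 (SE 0.208, adjusted p = 0.0272), with overlap between the days, and 59.5% of tested genes were called. The call of Prl2c3 was lost without WAT day 4 EGCG replicate 1 (−0.34, adjusted p = 0.242) and without WAT day 8 EGCG replicate 2 (−0.31, adjusted p = 0.261).

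In BAT cells with EGCG the members moved in opposite directions. Prl2c2 fell by 1.001 (SE 0.193, adjusted p = 0.000843) from day 4 to day 8, to 0.494 of its day 4 mean. Prl2c3 rose by 0.62 ± 0.208 (adjusted p = 0.0228), from 9.60 ± 0.146 to 15.4 ± 2.03 FPKM. The days did not overlap for either gene, and 58.0% of tested genes were called. The Prl2c3 call was lost in 3 of the 4 fits that left out a library, with a difference of 0.64 (adjusted p = 0.0710) without BAT day 4 EGCG replicate 1, 0.61 (adjusted p = 0.0830) without BAT day 4 EGCG replicate 2, and 0.50 (adjusted p = 0.140) without BAT day 8 EGCG replicate 2. In BAT controls, a contrast that the choice of the family used, the day 8 minus day 4 difference was −5.07 for Prl2c2 and −1.73 for Prl2c3 on the log2(FPKM + 1) scale, and 69.2% of tested genes were called.

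Of the 4 comparisons of depots, Prl2c2 differed most among day 4 controls. There it was 3.88 ± 0.193 higher in BAT than in WAT (adjusted p = 8.04e-08), a ratio of mean FPKM of 21.4. The BAT day 4 control values were part of what chose Prl2c2, so this p-value is not independent of that choice. Prl2c3 was 1.53 ± 0.208 higher (adjusted p = 9.23e-05), a ratio of 6.81. The 3 BAT libraries lay above the 3 WAT libraries for both genes, and 55.8% of tested genes were called in this comparison. With EGCG on day 4, Prl2c2 was 1.02 ± 0.193 higher in BAT (adjusted p = 0.00108) and Prl2c3 0.91 ± 0.208 higher (adjusted p = 0.00357), where 48.7% of tested genes were called.

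Among day 8 controls the depots did not differ detectably at this depth. Prl2c2 differed by 0.24 ± 0.193 (adjusted p = 0.318) and Prl2c3 by −0.15 ± 0.208 (adjusted p = 0.581), where 53.6% of tested genes were called. With a pseudocount of 0.1 the Prl2c2 difference was 1.04 and was called (adjusted p = 0.0329), on 6 and 1 reads in WAT and 17 and 5 reads in BAT (replicates 1 and 2). With EGCG on day 8, Prl2c2 was 0.97 ± 0.193 higher in BAT (adjusted p = 0.00222) and Prl2c3 2.13 ± 0.208 higher (adjusted p = 1.57e-05), where 38.4% of tested genes were called. With a pseudocount of 0.1 the Prl2c2 difference was 1.01 and was not called (adjusted p = 0.0502).

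**Figure D3:**
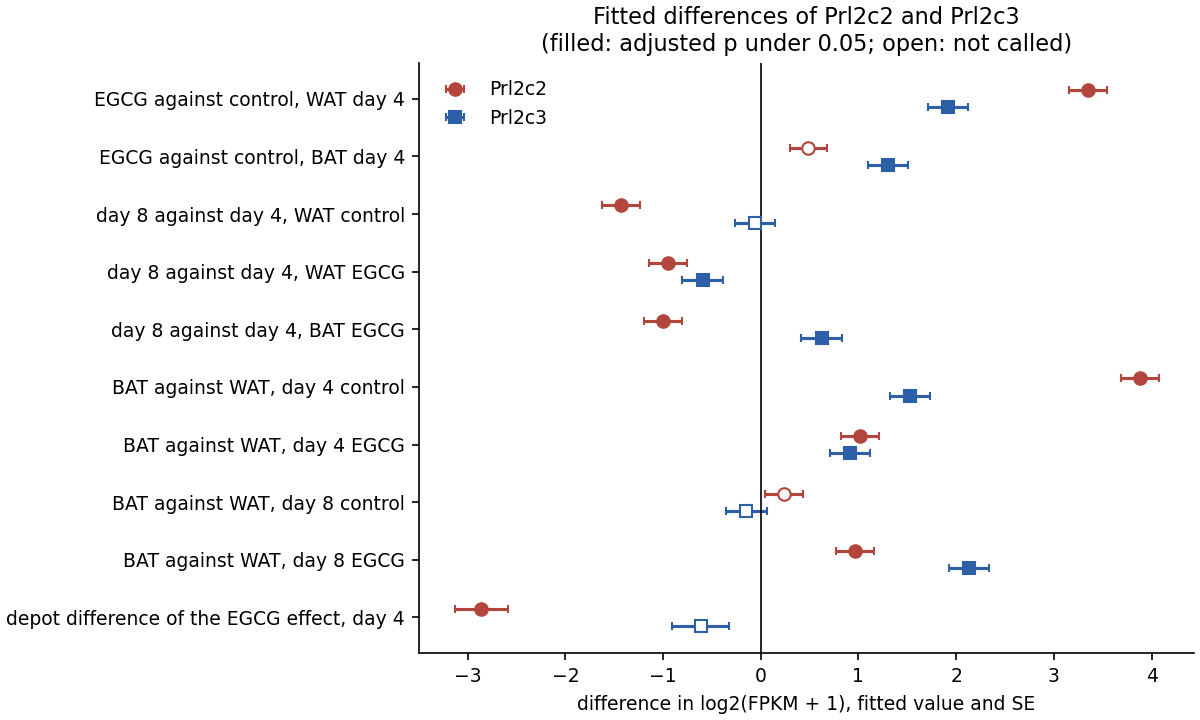
Fitted differences in log2(FPKM + 1) (x axis, with SE) of Prl2c2 (circles) and Prl2c3 (squares) in the 10 tested comparisons (rows), from 16 libraries. Filled symbols have an adjusted p under 0.05. The 2 genes lie on opposite sides of 0 in BAT with EGCG from day 4 to day 8, at −1.001 and 0.62.

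Prl2c3 was the lower of the 2 near-identical genes in each library outside the day 8 controls. Its FPKM with EGCG was 5.73, 3.71 and 2.81 in WAT on day 4, 3.53, 2.07 and 0.734 in WAT on day 8 (the third 1.88 when rescaled), 9.70, 9.50 and 5.71 in BAT on day 4, and 13.9, 16.8 and 12.3 in BAT on day 8. In controls it was 0.436, 0.549 and 0.287 in WAT on day 4, 0.450, 0.410 and 0.213 in WAT on day 8, 4.04, 2.67 and 3.50 in BAT on day 4, and 0.202, 0.388 and 0.0666 in BAT on day 8. Its highest group was therefore BAT day 8 EGCG, whereas that of Prl2c2 was BAT day 4 EGCG.

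Prl2c3 took a larger share of the reads in BAT day 8 EGCG than in the other groups with many reads. It took 34.3%, 33.8% and 28.1% of all proliferin reads there, with 95% Wilson intervals of 32.0% to 36.6%, 31.9% to 35.8% and 24.7% to 31.7%. In BAT day 4 EGCG it took 14.4%, 13.2% and 8.13%. Its share lay between 7.02% and 14.2% in WAT day 4 EGCG, between 11.9% and 18.5% in WAT day 8 EGCG, and between 6.37% and 9.36% in BAT day 4 control. The 3 shares of BAT day 8 EGCG did not overlap with those of any of these groups. This comparison was chosen after the values were seen, and no test was made. In each EGCG group the share was lowest in replicate 3, from the other table, and in BAT day 4 control it was highest there. Whether the 2 tables split shared reads alike is not known, and the intervals do not cover this. Shares in the day 8 controls rest on 9 to 31 family reads and ranged from 10.0% to 93.3%.

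**Figure D4:**
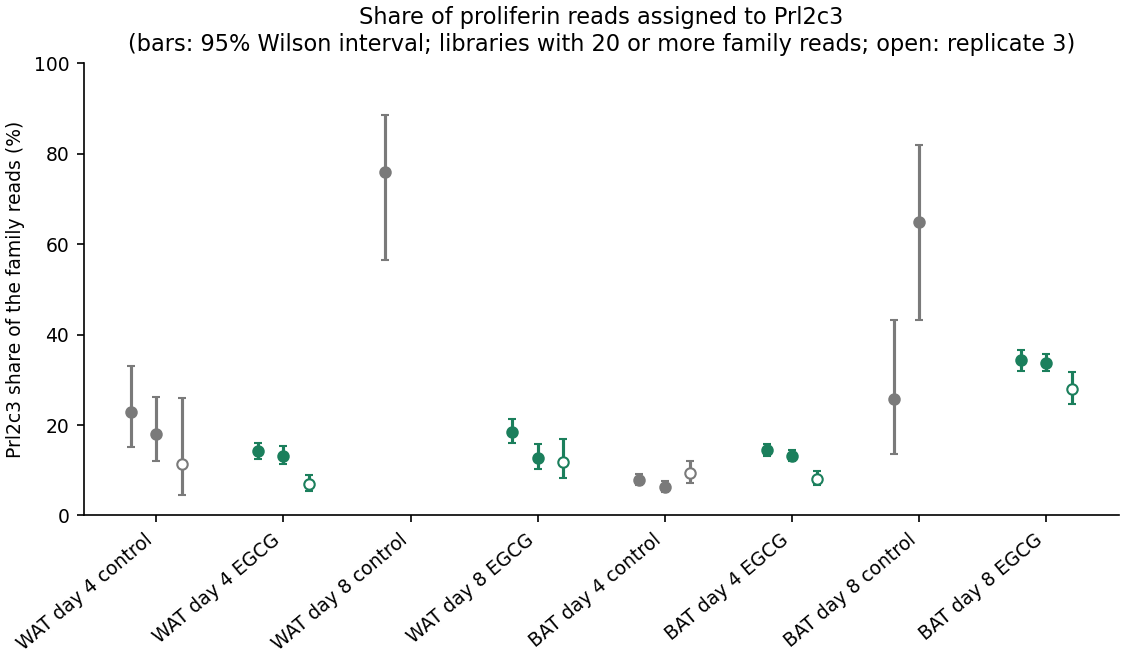
Share of the family's reads assigned to Prl2c3 (y axis, percent) in each library with 20 or more family reads, by group on the x axis, with 95% Wilson intervals that cover counting error only. Filled points are replicates 1 and 2, open points replicate 3, grey is control and green is EGCG. BAT day 8 EGCG lies between 28.1% and 34.3%, above the other EGCG groups, and the day 8 controls have wide intervals.

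Because the copies share sequence, the reads of all 3 genes were also summed. Scaled to library size as RPM, the sum was 39.5 ± 5.49 in BAT day 4 control and 0.587 ± 0.113 in BAT day 8 control (SD, n = 2). With EGCG it was 59.1 ± 2.81 in BAT on day 4 and 38.4 ± 5.45 on day 8. In WAT it was 2.10 ± 0.686 and 0.438 ± 0.0912 in the controls of day 4 and day 8, and 29.1 ± 7.27 and 15.0 ± 1.67 with EGCG. By these means the order of the groups was the same as by Prl2c2 FPKM. However, BAT day 4 control and BAT day 8 EGCG did not differ beyond their spread by summed reads. In replicate 3 their order was the reverse, with 31.8 and 37.1 RPM.

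Prl2c5, the most diverged of the 3 genes, stayed under 1 FPKM in all libraries and was below the filter of the main test. Its highest levels were those of BAT day 4 controls, 0.819, 0.801 and 0.674 FPKM, and BAT day 4 EGCG was lower at 0.375, 0.501 and 0.227 FPKM. WAT cells showed the opposite order on day 4, with 0.280, 0.221 and 0.395 FPKM with EGCG and 0 to 2 reads in the controls. In a fit without the filter over 26587 genes, Prl2c5 fell by 0.33 (SE 0.0682, adjusted p = 0.00465) with EGCG in BAT and rose by 0.31 ± 0.0682 (adjusted p = 0.00661) in WAT. The interaction was −0.64 ± 0.0964 (adjusted p = 0.00215). In that fit 25.4%, 29.1% and 13.3% of genes were called in these comparisons. Among day 4 controls Prl2c5 was 0.84 ± 0.0682 higher in BAT (adjusted p = 1.78e-05), where 29.6% of genes were called. On day 8 its levels were 0.133, 0.0522 and 0.466 FPKM in BAT control, 0.506, 0.331 and 0.298 in BAT EGCG, 0 to 1 reads in WAT control, and 0.297, 0.413 and 0.0494 in WAT EGCG (the last 0.127 when rescaled). So in BAT on day 4 Prl2c5 was lower in 3 of 3 EGCG libraries while Prl2c3 and Prl2c2 were higher in 3 of 3.

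Most of the other prolactin family genes stayed near 0. Of 23 other family genes, among them Prl itself and the placental lactogens, 17 had at most 3 reads in each of the 24 libraries, and 6 of these had no read in any. None of the 23 passed the filter. Prl2c1, the next most similar gene to Prl2c2 by coding sequence (92.4% identity), had no read in any library. Low reads of 4 genes, named here after their values were seen, came almost wholly from EGCG libraries. Prl3a1 had 100 reads over the 12 EGCG libraries, with reads in 11 of them, and 1 read over the 12 control libraries. Prl8a9 had 30 reads, Prl8a2 22 and Prl6a1 7 in EGCG libraries, and none of the 3 had a read in a control. The highest Prl3a1 counts were 32 and 21 reads in WAT day 8 EGCG replicates 1 and 2 and 20 reads in BAT day 8 EGCG replicate 2. A pair of placental lactogen genes stood out in single libraries. Prl3d1 had 8164945 reads in WAT day 8 EGCG replicate 3 and 1 read in all others together, and Prl3d2 had 3935 reads in BAT day 8 EGCG replicate 3.

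Placental cells, the main known source of proliferins, were looked for with 23 marker genes outside the prolactin family. In 23 libraries, leaving out WAT day 8 EGCG replicate 3, 14 of them had no read and 19 had at most 3 reads in each library. Hand1, a trophoblast giant cell transcription factor, and Ctsq, a trophoblast cathepsin, had no read in any of them. Pappa2, a protease that cleaves IGF-binding proteins, was the one marker found in all 23 libraries, with at most 305 reads. In WAT day 8 EGCG replicate 3, 21 of the 23 markers had no read, and Plac1 and Pappa2 had 4 and 8 reads. The summed level of the list was at most 0.909 FPKM in any library.

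The identity of the cells was checked with depot and lineage markers. The white-depot genes Hoxc10, Hoxc9 and Tbx15 were called lower in BAT than in WAT day 4 controls in 3 of 3 cases. Of 4 brown-fat genes (Ucp1, Zic1, Ebf2 and Cidea), 1 was called higher there and 3 were not called, where 55.8% of tested genes were called. Zic1, a brown-depot gene, was 3.47 higher. Among day 8 controls 4 of 4 of these brown-fat genes were called higher in BAT, where 53.6% of tested genes were called. All 6 adipocyte markers were called lower with EGCG in the 4 comparisons of EGCG with control, with medians of −3.24 and −5.54 in WAT and −2.18 and −4.82 in BAT on day 4 and day 8. Beside this and the marker counts below, the shares of all tested genes called were 53.7% and 63.6% in WAT and 48.5% and 72.6% in BAT on these days. The summed level of the adipocyte markers was 9344 to 9680 FPKM in BAT day 8 control and 293 to 305 FPKM in BAT day 8 EGCG. Among the 6 preadipocyte and fibroblast markers, 2 were called higher and 3 lower with EGCG in WAT on day 4, 1 higher and 2 lower in BAT on day 4, none higher and 5 lower in WAT on day 8, and none higher and 4 lower in BAT on day 8. The 5 macrophage markers were called higher in 4 and 3 cases on day 4 (WAT and BAT) and lower in 5 and 5 cases on day 8. With quantile normalization the 4 calls in WAT on day 4 became 2, without Csf1r and Itgam, and in BAT on day 4 the preadipocyte markers had 1 call in each direction. The 4 endothelial markers were called higher in 3, 4, 3 and 4 cases (WAT day 4, BAT day 4, WAT day 8 and BAT day 8), with summed levels of 25.1 to 28.4 FPKM in BAT day 8 EGCG and 13.3 to 14.6 FPKM in BAT day 8 control. With median-ratio scaling the 4 calls in BAT on day 8 became 2, without Pecam1 and Tek, and in WAT on day 8 Pecam1 was also called lower. Only 1 of 12 testis genes passed the filter. The part of these markers in the proliferin levels was not tested.

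The receptors and signalling genes of the hormone family moved in both directions with EGCG. Of 12 such genes, all measured, 5 were called higher and 2 lower in WAT on day 4, 6 higher and 3 lower in BAT on day 4, 4 higher and 6 lower in WAT on day 8, and 4 higher and 7 lower in BAT on day 8. In the same order, 53.7%, 48.5%, 63.6% and 72.6% of all tested genes were called. With median-ratio scaling of the libraries, 4 of the 12 listed genes were called higher and 4 lower in WAT on day 4, and 2 higher and 7 lower in each depot on day 8. The list medians without it were 0.10, 0.20, −0.32 and −0.56, beside medians over all tested genes of 0.09, 0.03, 0.17 and 0.17. This scaling moved the medians over all genes to −0.01, 0.01, 0.00 and 0.01, and under another scaling the small day 8 rises of Jak2 and M6pr in WAT and of M6pr in BAT changed sign. Igf2r, the receptor that proliferin binds, rose in each, by 0.50 ± 0.0821 (adjusted p = 0.000339) in WAT and 0.34 ± 0.0821 (adjusted p = 0.00444) in BAT on day 4, and by 0.85 (adjusted p = 2.94e-06) and 1.75 (adjusted p = 3.18e-09) on day 8. In BAT on day 8 its level was 21.1 ± 0.0643 FPKM in controls and 73.7 ± 2.15 FPKM with EGCG, the highest of the 8 groups.

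Prlr, the prolactin receptor, moved the other way. It fell with EGCG by 0.98 (adjusted p = 1.96e-05) in WAT and 1.21 (adjusted p = 3.32e-06) in BAT on day 4, and on day 8 it fell by 1.73 (adjusted p = 1.09e-07) in WAT and fell by 1.86 (adjusted p = 2.47e-08) in BAT. Its level in BAT on day 8 was 3.36 ± 0.426 FPKM in controls and 0.196 ± 0.00319 FPKM with EGCG. Of the called genes, Socs3, an inhibitor of JAK-STAT signalling, rose most with EGCG on day 4 (1.94 in WAT and 0.89 in BAT), and Igf2r rose most on day 8. The largest falls among these 12 genes were those of Ghr, the growth hormone receptor, in WAT on day 4 (−1.20) and in both depots on day 8 (−2.12 in WAT and −2.18 in BAT), and of Prlr in BAT on day 4.

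AP-1 genes rose with EGCG, and the glucocorticoid receptor gene differed by less. Of 8 genes, 6 were called higher and none lower in WAT on day 4, 7 higher and none lower in BAT on day 4, 6 higher and none lower in WAT on day 8, and 7 higher and 1 lower in BAT on day 8. The shares of all tested genes called, in the same order, were 53.7%, 48.5%, 63.6% and 72.6%. Fosl1, an AP-1 subunit, rose by 2.47 ± 0.132 (adjusted p = 4.68e-08) in WAT and 0.99 ± 0.132 (adjusted p = 6.93e-05) in BAT on day 4, and by 1.60 and 0.89 on day 8. In WAT on day 4 it went from 1.20 ± 0.0991 to 11.3 ± 1.57 FPKM, and in BAT from 4.67 ± 0.709 to 10.3 ± 0.354 FPKM. Its interaction on day 4 was −1.48 ± 0.187 (adjusted p = 0.000193), where 28.1% of tested genes were called. The part of AP-1 genes in the proliferin levels was not tested. Fos rose by 1.67 in BAT on day 4 (adjusted p = 1.74e-07) and showed 0.09 in WAT (adjusted p = 0.494), with an interaction of 1.58 (adjusted p = 2.21e-05). The smallest called rises were those of Jun in WAT and Jund in BAT on day 4 (0.46 and 0.61) and of Fosb in WAT on day 8 (0.52). Nr3c1, the glucocorticoid receptor, was not called in WAT on either day or in BAT on day 4 (differences of 0.08, −0.07 and −0.05), and fell by 0.16 in BAT on day 8 (adjusted p = 0.0168). With median-ratio scaling its WAT day 8 difference was −0.27 and was called (adjusted p = 0.00117), which made 6 higher and 1 lower in WAT on day 8.

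The same lists were followed over time in controls. In BAT controls from day 4 to day 8, where Prl2c2 went from 42.2 to 0.290 FPKM, 6 of the 8 genes were called higher and 2 lower, led by Fos (1.20) and with Junb lowest (−0.33). Both lower calls, Junb and Fosl1 (−0.32), were lost with median-ratio scaling, which gave 6 higher and 0 lower. In WAT controls 1 was called higher (Nr3c1, 0.37) and 3 lower (Fos lowest, −2.39). In the same contrasts the 9 glucocorticoid response genes were called higher in 9 of 9 cases in BAT controls (Klf9 highest at 1.18, Errfi1 lowest at 0.34), and 1 higher and 4 lower in WAT controls (Tsc22d3 1.45, Sgk1 −1.41). Over all tested genes, 69.2% were called in BAT controls and 61.0% in WAT controls.

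With EGCG, the 9 glucocorticoid response genes split on day 4, with 3 called higher and 3 lower in WAT (Mt2, a metallothionein, 1.43; Sgk1, a kinase, −0.83) and 5 higher and 2 lower in BAT (Sgk1 1.91, Zbtb16 −0.50). On day 8, 3 were called higher and 3 lower in WAT (Sgk1 0.94, Tsc22d3 −1.15), and 2 higher and 7 lower in BAT (Sgk1 0.85, Zbtb16 −2.90). With median-ratio scaling the day 8 counts were 1 higher and 4 lower in WAT, where Per1 changed sign and Errfi1 lost its call, and 1 higher and 7 lower in BAT, where Dusp1 lost its call. Without that scaling, 53.7% (WAT) and 48.5% (BAT) of all tested genes were called on day 4, and 63.6% and 72.6% on day 8. Fkbp5, a chaperone that glucocorticoids induce, fell with EGCG by 0.71 (adjusted p = 0.0137) in WAT on day 4, fell by 0.92 (adjusted p = 0.00225) in WAT on day 8 and fell by 2.51 (adjusted p = 4.55e-07) in BAT on day 8, and showed −0.53 (adjusted p = 0.0548) in BAT on day 4. Tsc22d3, which encodes the glucocorticoid-induced leucine zipper protein, fell by 1.15 in WAT (adjusted p = 0.00420) and 1.83 in BAT (adjusted p = 0.000115) on day 8, and was not called on day 4. On day 8 both transcripts were thus lower with EGCG than in controls, whereas Sgk1 was higher in both depots. Sgk1 had opposite EGCG effects on day 4, with an interaction of 2.74 (adjusted p = 1.32e-06). The part of the glucocorticoid response in the proliferin levels was not tested.

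**Figure D5:**
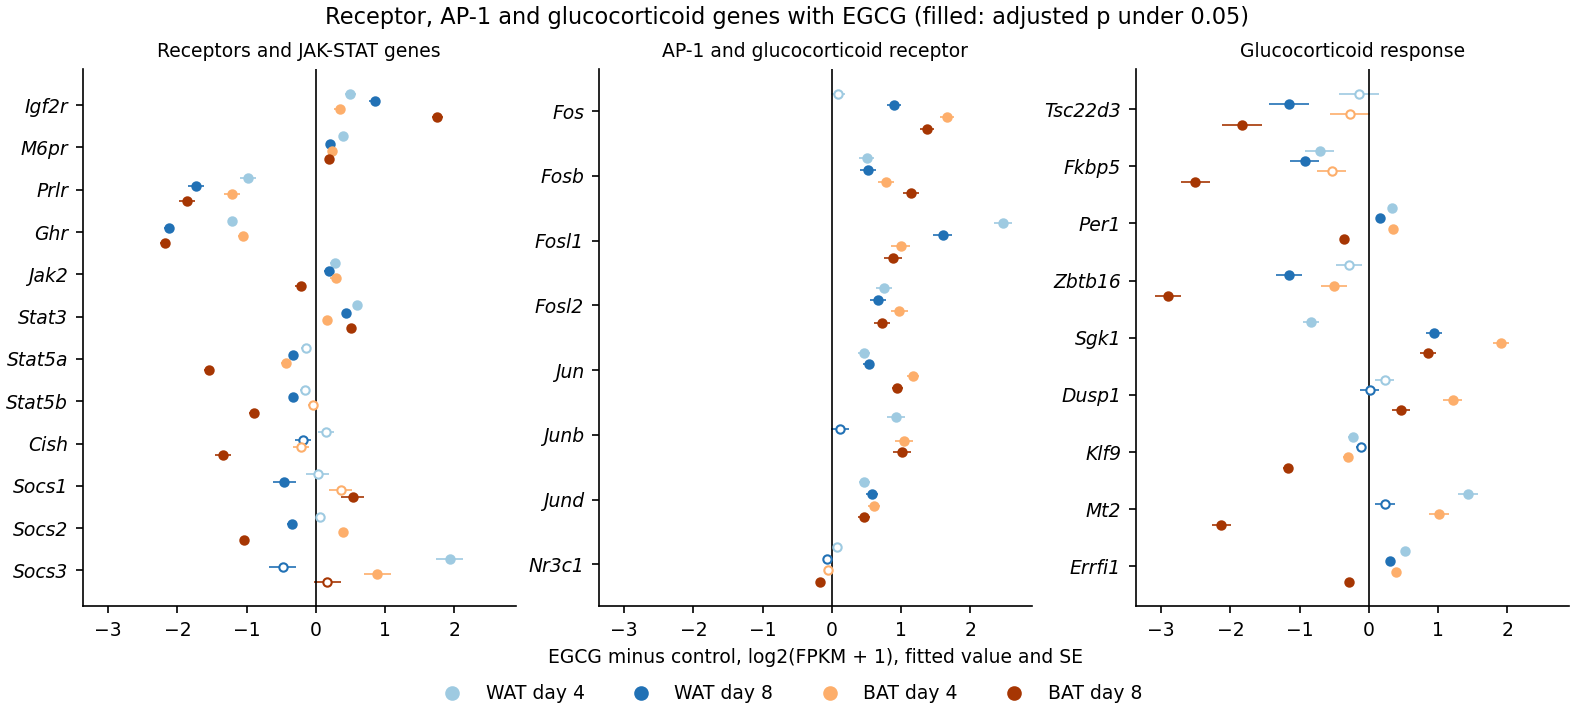
EGCG minus control in log2(FPKM + 1) (x axis, fitted value with SE) for 12 receptor and JAK-STAT genes, 8 AP-1 and glucocorticoid receptor genes and 9 glucocorticoid response genes (rows, one panel per list), in WAT and BAT on day 4 and day 8 (colours), from 16 libraries. Filled points have an adjusted p under 0.05. Igf2r lies right of 0 and Prlr left of 0 in the 4 comparisons, and Fosl1 lies farthest right in WAT on day 4, at 2.47.

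The genes most like Prl2c2 were sought by the Pearson correlation of log2(FPKM + 1) over the 16 libraries, among 10199 genes with a group mean of at least 5 FPKM. The highest values were those of Trim32, a ubiquitin ligase (0.977), Gfra1, a receptor for glial cell line-derived neurotrophic factor (0.972), Sec24c, a COPII coat protein (0.968), Hps5, a subunit of a lysosome-related organelle complex (0.967), and Phtf1 (0.966). Prl2c3 had 0.879. Their levels spanned far less than those of Prl2c2. Trim32 group means ran from 9.25 FPKM in WAT day 8 control to 17.4 FPKM in BAT day 4 EGCG, and Gfra1 from 4.27 to 21.5 FPKM in the same 2 groups. The libraries share groups, so the correlation mostly describes 8 group means, and no p is given. With Spearman's correlation the 5 highest were Rad17, Polh, Aqr, Ttf2 and Minpp1, and the 2 lists had 0 genes in common.

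Promoter sequence was compared for the 2 members listed in the RefSeq promoter table, Prl2c3 and Prl2c5. Prl2c2 has no entry there. The part of promoter sequence in the EGCG differences was not tested. The sequences are the 250 bases before the annotated start in GRCm38.p6, a later build than the mm9 of the expression data, at chr13:12800080-12800329 on the minus strand for Prl2c3 and chr13:13182466-13182715 on the plus strand for Prl2c5. Capitals mark matches to the AP-1 motif TGANTCA and the TATA motif TATAA.
Prl2c3: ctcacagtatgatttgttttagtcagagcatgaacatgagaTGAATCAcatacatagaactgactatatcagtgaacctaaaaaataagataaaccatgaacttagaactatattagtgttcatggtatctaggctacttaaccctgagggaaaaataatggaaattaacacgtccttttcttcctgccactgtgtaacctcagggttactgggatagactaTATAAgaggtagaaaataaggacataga
Prl2c5: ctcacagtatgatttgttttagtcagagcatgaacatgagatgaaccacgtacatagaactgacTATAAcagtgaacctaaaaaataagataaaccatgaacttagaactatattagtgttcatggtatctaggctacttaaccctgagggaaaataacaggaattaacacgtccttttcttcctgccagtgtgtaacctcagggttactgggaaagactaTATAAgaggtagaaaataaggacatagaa

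The 2 promoters were identical at 96.0% of 251 aligned columns, with 8 substitutions and 2 gap columns. The letters of the AP-1 motif occurred in Prl2c3 from −209 to −203, on both strands since the motif is its own reverse complement, and not in this window of Prl2c5. A TATAA match lay at −28 in Prl2c3 and at −29 in Prl2c5, which had another at −186. The glucocorticoid receptor half-site TGTTCT was searched on both strands and occurred in neither window. Among 32851 promoters of the same length, 6.75% held the AP-1 letters, 22.8% TATAA and 16.1% TGTTCT. These matches describe letters in a window, and binding was not measured.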

How the data were processed

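RNA-seq of 24 libraries (8 groups of 3) was analysed from 2 tables of FPKM values that the authors deposited, 1 with replicates 1 and 2 and 1 with replicate 3. Per the submitters' processing notes the tools were FastQC 0.11.9, HISAT2 2.2.0 and HTSeq 0.11 with the mm9 build; their settings, strand and read length are not given in the sources used here. Deposited columns were assigned to samples by the labels. The family and the gene lists were chosen with earlier results of these data known, and 1 gene of the receptor list is not reported here. Genes were named by rule: the 4 members, the 5 genes most correlated with Prl2c2, and in each described comparison the called genes of a list with the highest and lowest change, plus Igf2r, Prlr, Nr3c1, Fosl1, Fkbp5 and Tsc22d3. Other genes, such as those named from the prolactin and placental lists or for a call that another scaling changed, were chosen after their values were seen.

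Whole reads were recovered from FPKM and gene length (100% of values whole within 0.01 reads). limma 3.58.1 (R 4.3.3) was fitted to log2(FPKM + 1) of the 16 libraries of replicates 1 and 2, with 1 mean per group and a trended prior, for 14095 genes with FPKM of at least 1 in 2 or more libraries. Tests were two-sided with Benjamini-Hochberg adjustment over all tested genes, and the fit was tested on simulated data. Members got no test in the 3 contrasts that chose them. Transcripts were read from the mm9 annotation (GENCODE M1) and promoters from RefSeq (GRCm38.p6).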

Additional observations from a re-analysis of the deposited data

Results flagged for a closer look

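The EGCG effect of day 4 differed between depots by a test of the difference itself for several genes. For Prl2c2 the BAT effect minus the WAT effect was −2.86 on the log2(FPKM + 1) scale (limma, adjusted p = 2.44e-05): the gene was 14.8 times as high with EGCG in WAT cells and 1.41 times in BAT cells, whose controls already had 42.2 ± 5.48 FPKM against 1.97 ± 0.744 in WAT (SD, n = 2). For Prl2c5 the term was −0.64 (adjusted p = 0.00215) in the fit without a filter, with 3 of 3 EGCG libraries above the controls in WAT and 3 of 3 below them in BAT, at levels under 1 FPKM. Among the listed genes of the AP-1, receptor and glucocorticoid groups, Fosl1 had −1.48 (adjusted p = 0.000193) and Socs3 −1.05 (adjusted p = 0.0154). Fos had 1.58 (adjusted p = 2.21e-05), Socs2 0.34 (adjusted p = 0.0165), Dusp1 0.98 (adjusted p = 0.00290) and Sgk1 2.74 (adjusted p = 1.32e-06). Of the tested genes 28.1% were called in this comparison. The BAT day 4 controls, which enter this term, were also used in the choice of the family.

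A pair of genes outside the comparisons had reads in single libraries. Prl3d1 had 8164945 reads, 19.6% of the library, in WAT day 8 EGCG replicate 3 and at most 1 read elsewhere. Prl3d2 had 3935 reads in BAT day 8 EGCG replicate 3. In WAT day 8 EGCG replicate 3 the predicted genes 4930555F03Rik, 6030405A18Rik and Gm4675 had 3292684 reads each, the same number, and 1700007K09Rik had 7383252.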

How the results depend on the processing

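Of 248 alternative values for the 20 tested member differences, 231 kept direction and side of the threshold, 10 lost a call, 7 gained one and 0 reversed. Prl2c2 with EGCG in BAT on day 4 was called with quantile normalization (0.50), with the 23 libraries that leave out WAT day 8 EGCG replicate 3 (0.64) and with that library rescaled (0.64; an alternative chosen after seeing the data). Prl2c3 lost its call from day 4 to day 8 with EGCG in WAT with a pseudocount of 0.1 (−0.75) or no filter (−0.60), and in BAT likewise (0.67 and 0.62); leaving out 1 library gave −0.88 to −0.31 in WAT and 0.50 to 0.75 in BAT. With a pseudocount of 0.1, Prl2c2 gained a call between depots among day 8 controls (1.04) and lost it with EGCG on day 8 (1.01). The Prl2c3 interaction was called with a pseudocount of 0.1 (−1.48), 23 libraries (−0.74) and rescaling (−0.74). The causes were not tested.

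Counts of called genes fell by over 1.5 times only when all 24 libraries were fitted as deposited: to 3081 from 7567 (EGCG, WAT day 4), 2671 from 6838 (EGCG, BAT day 4), 4107 from 8591 (time, WAT control), 3630 from 8171 (time, BAT EGCG), 2556 from 7867 (depots, day 4 control), 2250 from 6865 (depots, day 4 EGCG), 2852 from 7555 (depots, day 8 control) and 627 from 3959 (interaction). The replicate block changed no member's call (Prl2c2 with EGCG in WAT on day 4: 3.35) and moved no count by over 1.5 times (7505 genes in that comparison). Deviations of replicate 1 from the group mean of replicates 1 and 2 correlated between −0.079 and 0.081 over 28 pairs of groups. No pairing by number was seen in these libraries. The check cannot exclude shared mice or preparations, and it did not include replicate 3. The 2 planned count tests on recovered reads were not run. Day 8 controls had 1 to 17 Prl2c2 reads, which limits each comparison with them.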
